A study of Mus musculus with 14 samples.

Results

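Ribosome biogenesis and nucleolar genes were followed through haematopoietic cluster formation in the mouse embryonic aorta. The 33 genes were taken by symbol, as factors known for making ribosomes, and all 33 were listed in each table, out of 19322 genes listed for the E10 and the E11 single cells alike. By role, 3 encode core proteins of box C/D snoRNPs, 4 the box H/ACA snoRNP core, 6 abundant nucleolar proteins, 2 subunits of RNA polymerase I, 7 factors of the small ribosomal subunit and 11 factors of the large subunit. Levels are summed transcripts per 10000 transcripts of the 19322 shared genes. The E10 table used here lists none of 102 further genes, whose symbols begin with Rpl or Rps, so these were left out of the total at both stages.

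The study sorted single cells by flow cytometry from the aorta-gonad-mesonephros region (AGM) and the yolk sac (YS), and picked whole intra-aortic haematopoietic clusters (wIAHCs) out of embryo slices, at embryonic days E10 and E11. Non-haemogenic endothelial cells (non-HE; Cdh5+ Gfi1- Gfi1b- c-kit-), haemogenic endothelial cells (HE; Cdh5+ Gfi1+ Gfi1b- c-kit-) and cells in endothelial-to-haematopoietic transition (EHT; Cdh5+ Gfi1+ Gfi1b- c-kit+) came from ICR embryos that carried the Gfi+/tomato and Gfi1b+/GFP reporter alleles, so the gate for HE and EHT rests on Gfi1 reporter fluorescence. Cells of dissociated clusters (IAHC cells; c-kit+CD31+, and at E11 also a c-kit+ sample), YS haematopoietic stem and progenitor cells (YS HSPCs; c-kit+), type I (c-kit+ Cdh5+ CD45-) and type II (c-kit+ Cdh5+ CD45+) pre-HSCs at E11, and the c-kit+ wIAHCs came from wild-type C57BL/6 embryos. All listed IAHC cells were used. The study's purification rule on Gpr56 and non-IAHC transcripts, as applied here to the deposited, thinned counts, passed 54 of 73 at E10 and 187 of 290 at E11. The study itself shows 73 E10 IAHC cells, and a number near 290 at E11, as already purified on Gpr56. Cells that did not pass here therefore need not have failed the rule in the study. AGMs were pooled for the stainings of IAHC cells, and pooling is not mentioned for the other sorts. The strain changes together with the population between EHT and IAHC, so the 2 cannot be told apart there. Each single-cell population is 1 sample per stage, except that the E11 IAHC cells are 2 samples and that both types of pre-HSC are 1 sample, told apart by the headers. Each was sorted in 1 to 9 sets of wells, so no test between populations was possible and the 95% intervals cover counting error only.

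A ribosome begins in the nucleolus, where RNA polymerase I transcribes a long precursor rRNA. Small nucleolar RNPs guide 2′-O-methylation (box C/D) and pseudouridylation (box H/ACA) of that precursor, and a large set of helicases, GTPases and scaffold proteins cleaves it and assembles it with ribosomal proteins into the small and the large subunit. Growing and dividing cells invest heavily in this pathway, and haematopoietic progenitors are known to be sensitive to its defects, as in Diamond-Blackfan anaemia and dyskeratosis congenita.

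Cells numbered 546 at E10 and 575 at E11, with 3000 and 5000 transcripts in every cell as deposited, of which 3171 to 4729 (median 3861) fell on the shared genes at E11. Cells given here as E10 non-HE stand in the E10 table under headers that read early E11, and their stage was taken from the table and the label. Header ages differ among other sets too. E10 HE sets read E10.5, and E10 EHT sets late E10 or E10.5. E11 non-HE sets read late E11 or E11.5, and E11 HE and EHT sets late E11. Endothelial markers were lower and haematopoietic markers higher in EHT than in HE at both stages. Summed endothelial markers went from 129 in E10 non-HE to 97.8 in HE, 28.1 in EHT, 16.3 in IAHC cells and 1.11 in YS HSPCs, and summed haematopoietic markers from 0.930 to 7.41, 30.3, 40.0 and 30.5. At E11, endothelial markers were higher in HE (129) than in non-HE (107) and lowest of the 3 in EHT, and haematopoietic markers went from 4.85 in HE to 31.9 in EHT. At E11 the macrophage markers summed to 9.76 in EHT and to at most 1.04 elsewhere; 2 EHT cells carried at least 4 of them, and their part in the EHT levels was not tested.

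Together, the 33 genes were lowest in the non-haemogenic endothelium, about doubled from HE to EHT at both stages, and were highest in YS HSPCs. At E10 their summed level was 41.6 (95% exact Poisson interval 38.2 to 45.3) in non-HE, 63.9 (61.0 to 66.8) in HE, 124.5 (122 to 127) in EHT and 125.8 (121 to 131) in IAHC cells, with YS HSPCs the highest at 185.9 (182 to 190). At E11 it was 40.7 (37.3 to 44.3) in non-HE, 41.2 (38.5 to 44.2) in HE, 81.2 (77.2 to 85.4) in EHT and 106.2 (104 to 108) in IAHC cells, with YS HSPCs again the highest at 142.7 (137 to 148). Type I and type II pre-HSCs stood at 114.9 (111 to 119) and 119.3 (115 to 124). The order of the populations was therefore alike at both stages, except that HE lay above non-HE at E10 and level with it at E11, and that IAHC cells lay above EHT at E11 and level with it at E10.

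**Figure D1:**
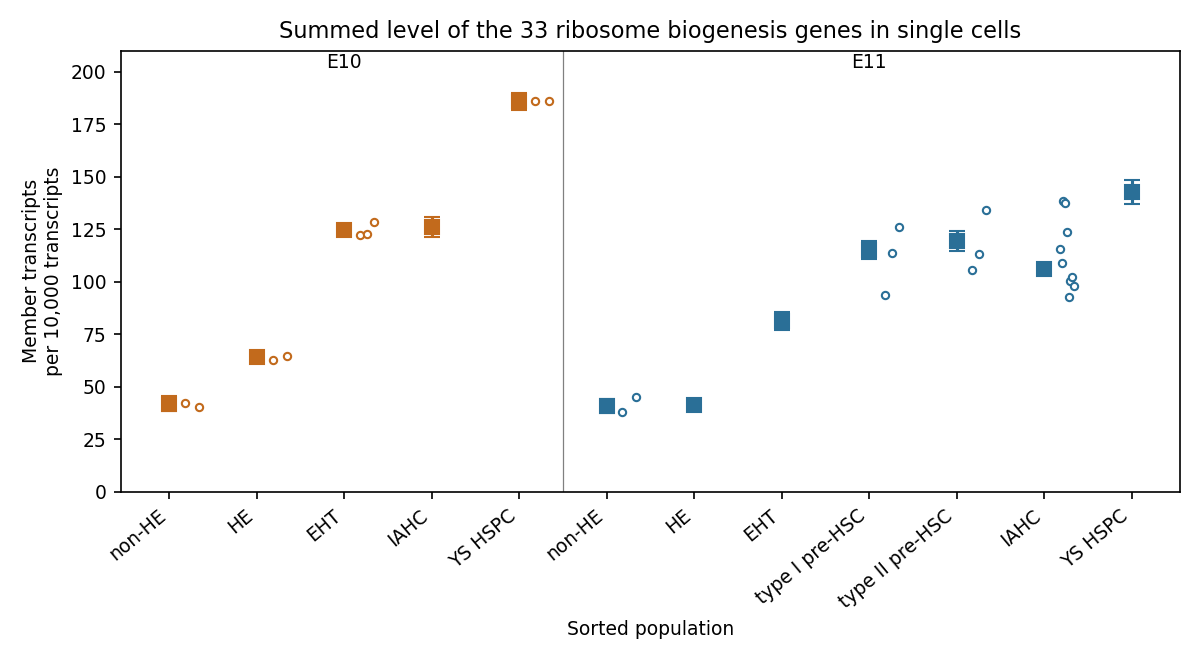
Summed level of the 33 ribosome biogenesis genes in transcripts per 10000 (y axis) for each sorted population (x axis) at E10 and E11, with 95% Poisson intervals of the summed transcripts and an open circle for each sorted set where a population has more than 1. The E10 level steps from 63.9 in HE to 124.5 in EHT, and the E11 level from 41.2 to 81.2.

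The step from HE to EHT was 1.95-fold at E10 (95% interval 1.85 to 2.05) and 1.97-fold at E11 (1.81 to 2.15). The 2 sorted sets of E10 HE cells lay between 62.8 and 64.5, and the 3 sets of E10 EHT cells between 122 and 128, with no overlap. E11 HE and E11 EHT cells are 1 sorted set each, so population and set cannot be told apart at E11. Single cells were broader than counting error alone gives. The middle 50% of E10 HE cells lay between 44.2 and 76.7 and of E10 EHT cells between 100 and 150, with a standard deviation over EHT cells of 35.5 where counting alone gives 20.4. The summed cell cycle genes, as other genes of growing cells, stood at 49.6 and 53.8 in E10 HE and EHT and at 13.6 and 38.1 at E11; their part in the step was not tested.

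Of the 30 members with a mean level of at least 0.5 over the 12 populations, 25 were past 1.5-fold higher in EHT than in HE at E10 and none was past 1.5-fold lower, where 886 of all 4562 genes past the same filter (19%) were higher and 15.7% lower. At E11, 22 of 30 were higher and none lower, with 24.7% higher and 18.9% lower over all genes. The median log2 ratio of the members was 0.97 and 0.90 at E10 and E11, that of all genes 0.07 and 0.09. The interval of the ratio lay above 1 for 22 of the 25 and for 14 of the 22, the rest resting on few transcripts. A count of 19 members were past 1.5-fold higher at both stages, beside 10.9% of all genes. Polr1b, Utp20 and Rrp12, which encode an RNA polymerase I subunit and a pair of small subunit factors, stayed under the filter. At E10, 25 of the 30 had all EHT sets above all HE sets (23% of all genes) and none the reverse (18.8%).

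**Figure D2:**
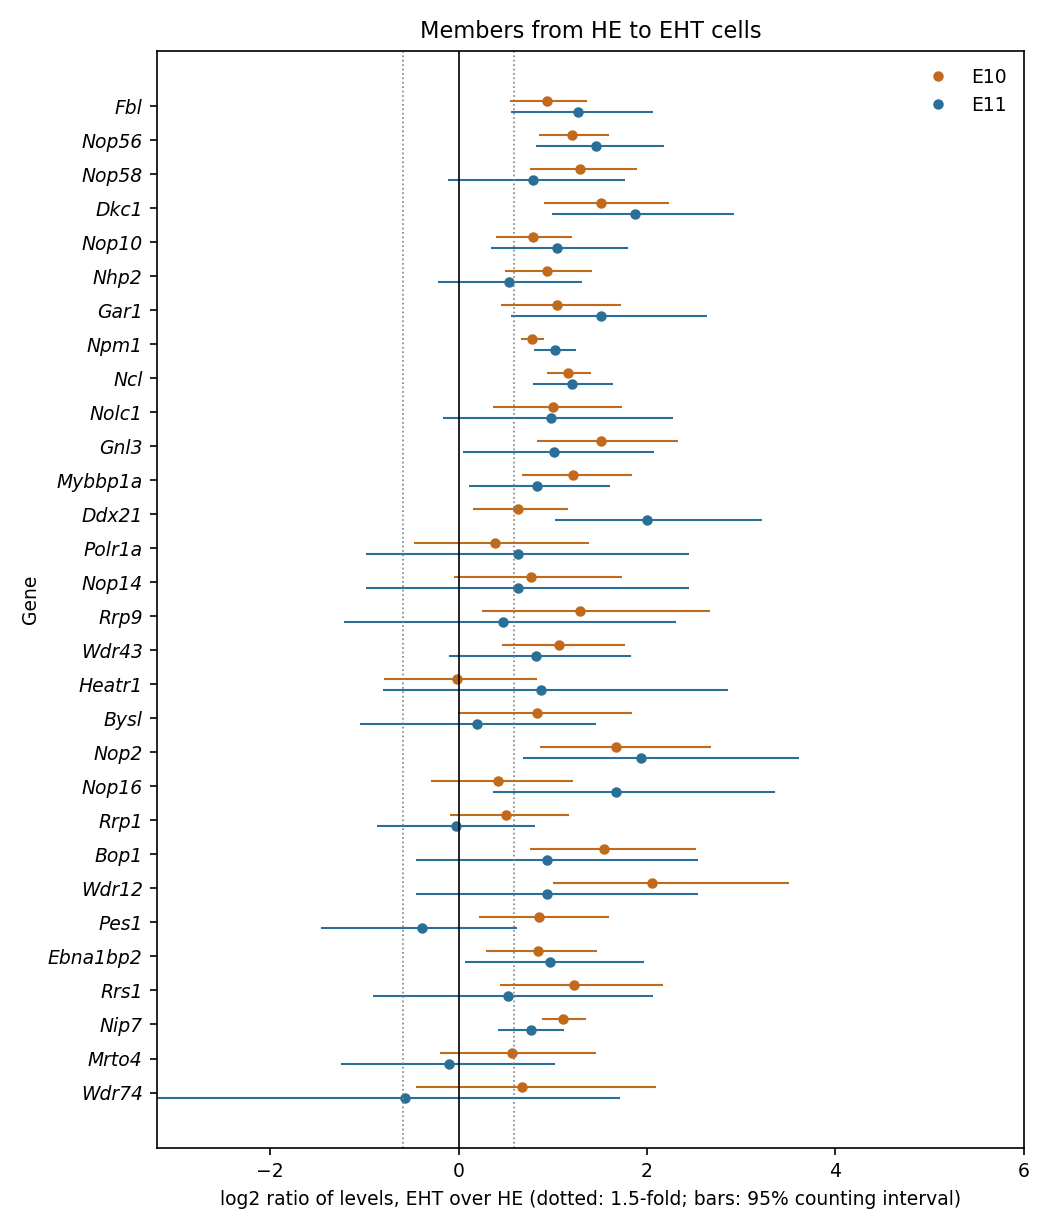
Log2 ratio of the level in EHT over the level in HE for each member, with 95% intervals (counting error only), at E10 and E11; dotted lines mark 1.5-fold, and the E11 interval of Wdr74 runs past the left edge. At E10, 25 of the 30 tested members are past 1.5-fold higher, and at E11 22 are, with none past it in the other direction.

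The box C/D core proteins are fibrillarin (Fbl), the methyltransferase itself, and Nop56 and Nop58, which hold the guide RNA. Fbl stood at 1.2 in E10 non-HE, 2.18 in HE, 4.19 in EHT, 7.17 in the IAHC cells and 7.23 in the YS HSPCs, and at 1.86, 1.16, 2.84, 7.05 and 9.09 in the same populations at E11, with 4.6 and 5.06 in type I and type II pre-HSCs. Nop56 stood at 1.55, 2.59, 6.00, 6.62 and 8.42 at E10, and at 1.4, 1.36, 3.81, 4.43 and 4.63 at E11 with 4.34 and 5.49 in the pre-HSCs. All 3 genes were past 1.5-fold higher in EHT than in HE at both stages. Fbl was 1.9-fold and 2.42-fold higher, Nop56 2.31-fold and 2.76-fold, and Nop58 2.44-fold and 1.73-fold, the last on 17 and 28 transcripts at E11. Nop58 reached 2.8 in E10 EHT and 1.5 in E11 EHT. Fbl was 1.71-fold and 2.46-fold higher in IAHC cells than in EHT, at E10 and E11, and Nop56 did not pass 1.5-fold there.

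The H/ACA core is made of the pseudouridine synthase dyskerin (Dkc1) with Nop10, Nhp2 and Gar1. Dkc1 differed from its partners between EHT and IAHC cells, the step at which the strain changes too. Dkc1 stood at 0.543, 0.816, 2.37, 1.32 and 1.75 at E10, in the same order, and at 0.387, 0.657, 2.47, 1.16 and 1.51 at E11, with 1.7 and 1.49 in type I and type II pre-HSCs. It was 2.86-fold and 3.65-fold higher in EHT than in HE, and then 0.57 times (log2 ratio -0.82, interval -1.47 to -0.26) and 0.47 times (-1.1, interval -1.58 to -0.57) the EHT level in IAHC cells. The E11 value pools both IAHC samples, which gave 0.363 (0.248 to 0.541) in c-kit+CD31+ cells and 0.719 (0.482 to 1.08) in c-kit+ cells, the latter not past 1.5-fold. Its highest level was in EHT. Nop10 stood at 1.71, 2.31, 4.01, 6.85 and 10.4 at E10 and at 1.7, 1.3, 2.74, 5.12 and 8.69 at E11, with 5.24 and 6.51 in the pre-HSCs. Nhp2 stood at 1.4, 1.77, 3.40, 5.11 and 10.4 at E10 and at 1.08, 1.36, 1.98, 4.44 and 7.82 at E11, and Gar1 went from 0.918 in HE to 1.92 in EHT, 3.06 in IAHC cells and 5.32 in YS HSPCs at E10. Nop10, Nhp2 and Gar1 were higher again in IAHC cells than in EHT, past 1.5-fold at both stages, in the opposite direction to Dkc1, save that Gar1 in the E11 c-kit+CD31+ sample alone was just under 1.5-fold.

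Of the nucleolar proteins with several roles, nucleophosmin (Npm1) and nucleolin (Ncl), which bind rRNA precursors and assembling particles, gave the most transcripts of the 33 genes. Npm1 supplied 28.5% of them and Ncl 14.3%. Npm1 stood at 11.2, 24.7, 42.5, 32.9 and 36.6 at E10, again in the order from non-HE to YS HSPCs, and at 12.9, 12.6, 25.7, 30.6 and 38.3 at E11, with 36.3 and 34 in the pre-HSCs. It rested on 726 and 2436 transcripts in E10 HE and EHT, a log2 ratio of 0.78 (interval 0.66 to 0.91), and on 250 and 479 at E11, 1.02 (0.80 to 1.25). The E10 EHT level of Npm1 was the highest of the 12, above that of YS HSPCs, unlike most members. Npm1 has processed pseudogenes, and how reads shared with them were counted is not given in the sources used here.

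Ncl was higher in IAHC cells and YS HSPCs than in EHT at both stages. It stood at 4.34, 6.60, 14.8, 19 and 38.5 at E10, and at 2.48, 3.49, 8.05, 13.6 and 17.4 at E11, with 17.8 and 19.81 in type I and type II pre-HSCs. The ratio of YS HSPCs to IAHC cells for Ncl was 1.99-fold at E10 and 1.28-fold at E11, that for Npm1 1.11-fold and 1.25-fold. Among the other nucleolar genes, Mybbp1a, which encodes a nucleolar Myb-binding protein, stood at 1.09 in HE and 2.57 in EHT at E10, and at 1.3 and 2.36 at E11, 2.33-fold and 1.78-fold. Ddx21, a nucleolar RNA helicase, was 1.55-fold higher in EHT at E10 and 3.99-fold at E11, from 0.505 in HE to 2.09. Gnl3, the nucleolar GTPase nucleostemin, was 2.9-fold and 2.01-fold higher, and Nolc1, a snoRNP chaperone, 2.00-fold and 1.97-fold.

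RNA polymerase I and small subunit factors gave few transcripts. Polr1a, the largest catalytic subunit of RNA polymerase I, stood at 0.510 in HE and 0.681 in EHT at E10 and at 0.303 and 0.483 at E11, on 15, 39, 6 and 9 transcripts, so its ratio of 1.3 and 1.55 has intervals on both sides of 1. Of the 5 small subunit members tested, 4 were past 1.5-fold higher at E10 and 3 at E11, beside 19% and 24.7% of all genes. Wdr43 and Nop14, both parts of the early small subunit particle, passed at both stages. Wdr43 was 2.10-fold and 1.77-fold higher in EHT than in HE. Nop14 was 1.7-fold and 1.55-fold higher, the last on 9 EHT transcripts, as few as for Polr1a. Heatr1, another part of that particle, was level at E10 (0.99-fold) and 1.83-fold higher at E11 on 5 and 9 transcripts.

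Of the 11 large subunit members, 8 were past 1.5-fold higher in EHT than in HE at E10 and 6 at E11, beside the same 19% and 24.7%. Nop2, a methyltransferase of the large subunit rRNA, stood at 0.442 in HE and 1.45 in EHT at E10, and at 0.303 and 1.23 at E11, 3.17-fold and 3.84-fold higher. Bop1, Pes1 and Wdr12 form one complex that matures the large subunit precursor. Wdr12 was 4.14-fold (7 and 60 transcripts) and 1.9-fold higher and Bop1 2.92-fold and 1.9-fold, whereas Pes1 was 1.81-fold higher at E10 and 0.76 times its HE level at E11, on 21 and 15 transcripts and with an interval on both sides of 1. Ebna1bp2, which acts on the same precursor, was 1.80-fold and 1.96-fold higher. Rrp1 and Mrto4 were not past 1.5-fold at either stage, with ratios of 1.4 and 0.98 for Rrp1 and log2 ratios of 0.57 and -0.10 for Mrto4, the first just under the limit.

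**Figure D3:**
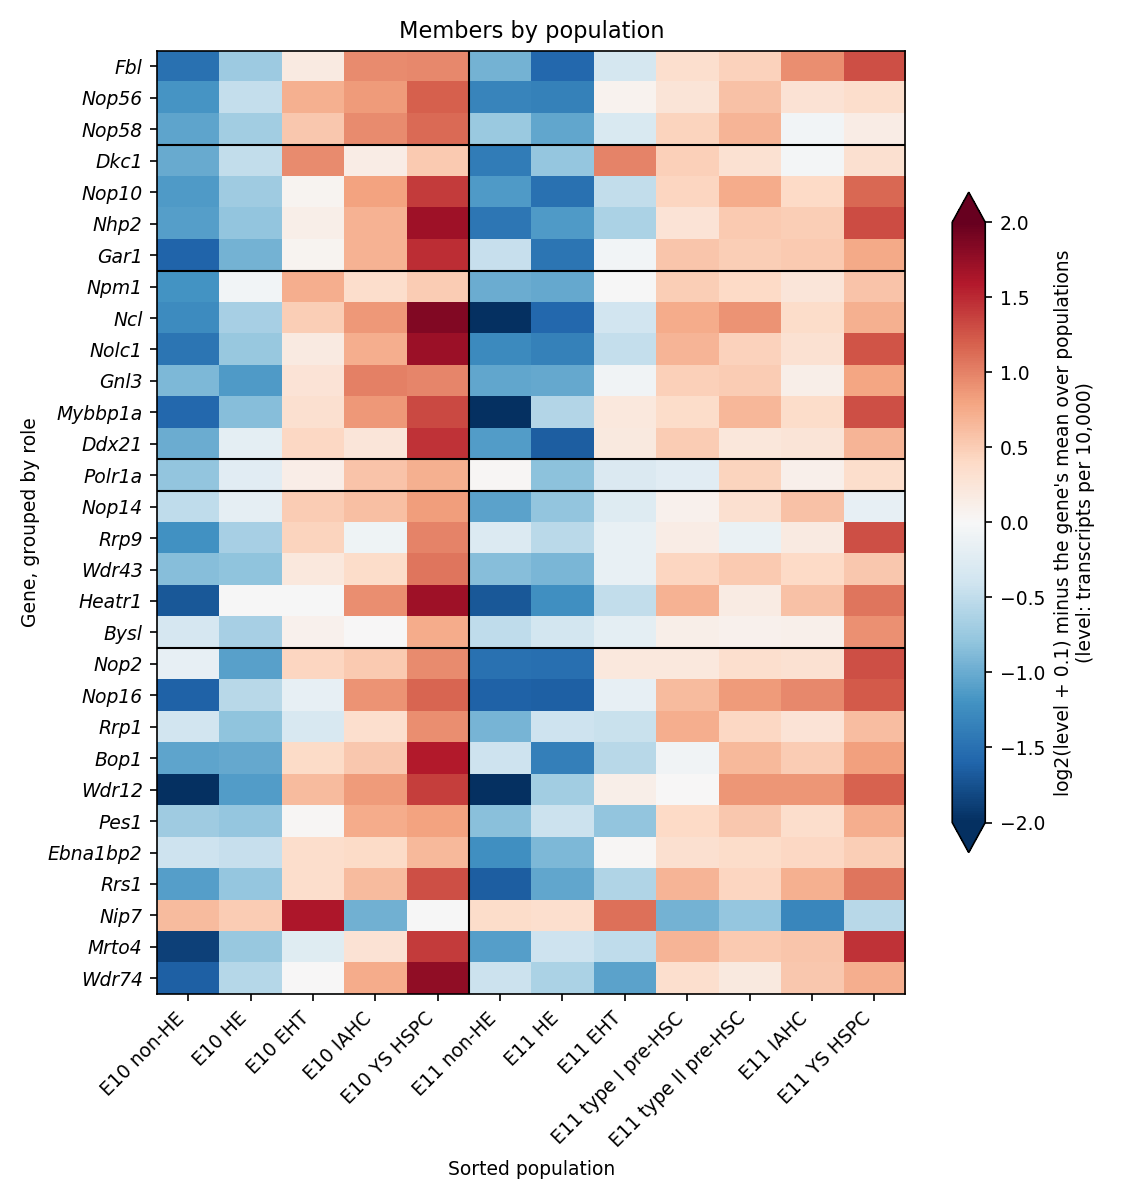
Level of each of the 30 genes past the level filter in the 12 populations (x axis), grouped by role (y axis); the colour is log2(level + 0.1) minus the gene's mean over populations, with the level in transcripts per 10000. Most genes are highest in YS HSPCs. Over the 12 populations, Nip7 and Npm1 are highest in E10 EHT and Dkc1 in E11 EHT. At E11, Npm1 is lower in EHT (25.7) than in YS HSPCs (38.3).

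Across the 12 populations, 29 of the 33 genes were highest in YS HSPCs of one stage or the other; of the 30 past the level filter 26 were, beside 30.1% of all genes past it. The exceptions were Npm1 and Nip7 (E10 EHT), Dkc1 (E11 EHT) and Gnl3, which stood at 3.20 in E10 IAHC cells beside 3.12 in E10 YS HSPCs. The mean used as filter includes YS HSPCs, so a gene high there can pass through them, as Wdr74 may (mean 0.563, with 1.77 in E10 YS HSPCs). The count over all 33 genes uses no filter. Between IAHC cells and YS HSPCs of the same strain, 16 of 30 members were past 1.5-fold higher in YS HSPCs at E10 and none lower (14.5% and 27% of all genes), and 10 were higher and 1 lower at E11 (11.9% and 24%), the lower one being Nop14 at 0.58 times. The Nop14 interval did not lie wholly under 1. Members past 1.5-fold higher differed by E11 IAHC sample. Nhp2, Dkc1, Ddx21, Gnl3, Pes1 and Nip7 passed only against c-kit+CD31+ cells, and Polr1a, Rrp1 and Rrs1 only against c-kit+ cells. Summed, YS HSPCs were 1.5-fold (1.41 to 1.54) and 1.34-fold (1.3 to 1.4) above IAHC cells. Erythroid markers summed to 5.43 in IAHC cells and 7.49 in YS HSPCs at E10 and to 1.2 and 14.8 at E11, and endothelial markers were lower in YS HSPCs; their part was not tested. Among the members with higher levels, Nhp2 went from 5.11 to 10.4 at E10, and Ddx21 was 2.35-fold higher there.

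The endothelial step, from non-HE to HE, differed by stage. The summed level was 1.53-fold higher in HE at E10 (1.4 to 1.7) and 1.01-fold at E11 (0.908 to 1.13). At E10, 14 of 30 members were past 1.5-fold higher and 1, Nop2, lower (21.2% and 13.8% of all genes); by sorted sets, 11 had both HE sets above both non-HE sets and Nop2 the reverse (26.4% and 14.1%). At E11, 5 were higher and 5 lower, near the 18.8% and 17.6% of all genes. Of the 14, 5 had an interval above 1, and Npm1 was the most abundant, 2.21-fold higher on 144 and 726 transcripts at E10 but 0.98-fold at E11. Without either E11 non-HE set, 15 members were past it, 5 higher and 10 lower or 10 higher and 5 lower. The summed cell cycle genes went from 24.3 in non-HE to 49.6 in HE at E10, with 21 of 21 past 1.5-fold higher, and from 31.2 to 13.6 at E11, with 17 of 21 past it lower; their part in the step, and the difference between the stages, were not tested.

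Between EHT and IAHC cells, where the strain changes with the population, most members were level or higher in IAHC cells and a pair were lower. At E10, 10 of 30 were past 1.5-fold higher in IAHC cells and 2 lower, with 17.5% and 22.9% over all genes, and the summed level was level with that of EHT (1.01-fold, 0.967 to 1.06). At E11, 16 were higher and 2 lower (23.1% and 22.3%), and the sum was 1.3-fold higher (1.2 to 1.38). Other lists moved at this step too. At E11, 13 of 21 cell cycle genes were past 1.5-fold higher and 1 lower, and mesenchymal markers were higher in 2 of 2. Erythroid markers were higher in 3 of 3 at E10, and in 2 of 3 at E11 with 1 lower. Endothelial markers were lower in 6 of 10 at E10, and in 8 of 10 at E11 with 1 higher. The part of these lists was not tested. Fbl, Nop10, Nhp2, Gar1, Heatr1, Nop16, Rrp1, Pes1 and Wdr74 were higher at both stages, the last 1.83-fold and 3.77-fold. Dkc1 and Nip7 were lower at both. With the E11 c-kit+ sample alone, Dkc1 and Rrp1 were not past 1.5-fold, and the sum was 1.54-fold higher (1.45 to 1.63), against 1.2-fold (1.1 to 1.28) with the c-kit+CD31+ sample alone. Within the pre-HSCs, 3 members, Polr1a, Bop1 and Wdr12, were past 1.5-fold higher in type II than in type I cells and none lower (10.9% and 13.6% of all genes), and the summed ratio was 1.04 (0.982 to 1.1). Leaving out 1 sorted set at a time moved the count past 1.5-fold, in either direction, from 2 to 8. Type I and type II sets share 3 set numbers in the headers, with no cell number in common, so the sets are compared within a number. The sum was 1.13-fold (0.965 to 1.32), 0.99-fold (0.919 to 1.08) and 1.06-fold (0.971 to 1.16) in type II cells within the 3 numbers. Nop56, Nhp2, Mybbp1a, Polr1a and Wdr12 were higher in type II cells within every number, and Npm1, Heatr1, Rrp1, Rrs1 and Wdr74 lower, 5 of 30 each (13.4% and 14.6% of all genes).

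Nip7, which acts in the maturation of the large subunit rRNA, was higher in EHT than in HE, as most members were. It was also higher in YS HSPCs than in IAHC cells, though at E11 1.33-fold (0.914 to 1.90) against c-kit+ cells alone. Nip7 had the lowest ratio of IAHC to EHT cells of all members at both stages, the step at which the strain changes. It stood at 7.05 in non-HE, 6.50 in HE, 14.1 in EHT, 2.28 in IAHC cells and 4.49 in YS HSPCs at E10, and at 5.89, 5.76, 9.82, 1.77 and 3.07 at E11, with 2.30 and 2.60 in type I and type II pre-HSCs. All 3 reporter populations of ICR embryos lay above all C57BL/6 populations of the same stage, although 1 of the 2 E10 HE sets, at 3.15, lay under the E10 YS HSPCs. The ratio of IAHC cells to EHT cells was 0.16 (log2 -2.61, interval -3.07 to -2.21) at E10 and 0.18 (-2.47, interval -2.8 to -2.17) at E11. Across the 12 populations the correlation of its level with the summed other members was -0.44, where the other members tested had 0.81 to 0.97; this is a description across populations that share libraries and depth. The other E10 HE set stood at 8.52, and the 3 E10 EHT sets lay between 11.8 and 18.5.

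**Figure D4:**
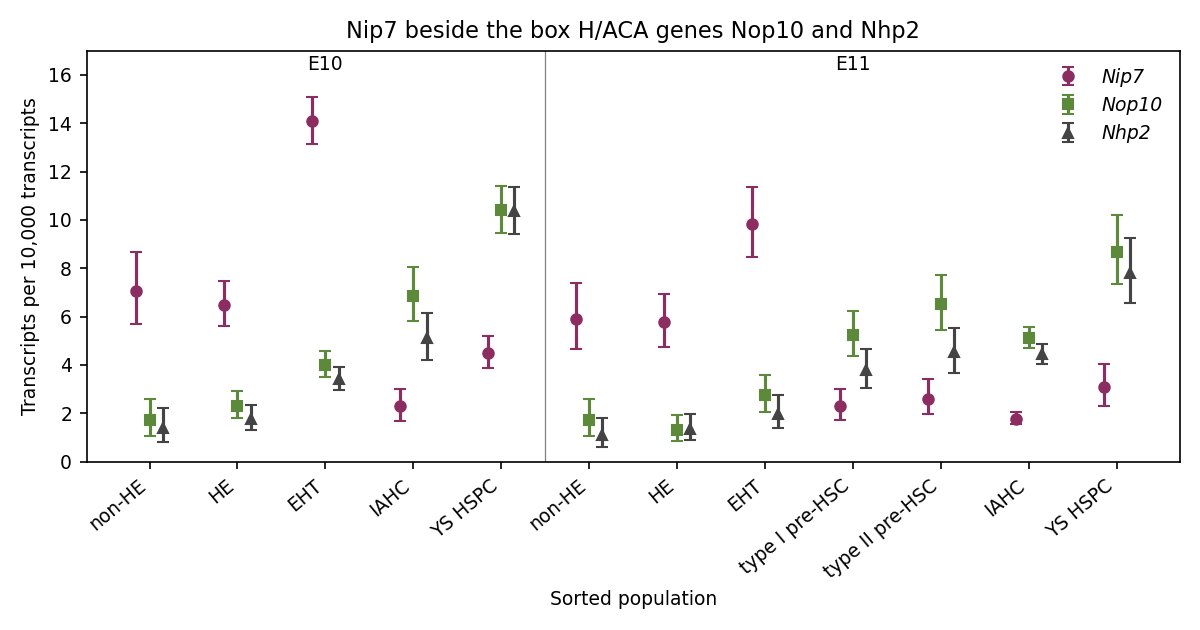
Levels of Nip7, Nop10 and Nhp2 (transcripts per 10000, y axis) by population and stage (x axis), with 95% Poisson intervals. Nip7 stands at 5.76 or higher in non-HE, HE and EHT (ICR embryos) and at 4.49 or lower elsewhere (C57BL/6), while Nop10 and Nhp2 are highest in YS HSPCs.

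Between E10 and E11, the summed level was lower at E11 in 4 of the 5 populations sorted at both stages, and level in non-HE. The summed ratio of E11 to E10 was 0.977 (0.865 to 1.1) in non-HE, 0.646 (0.594 to 0.701) in HE, 0.652 (0.617 to 0.690) in EHT, 0.768 (0.734 to 0.803) in YS HSPCs and 0.844 (0.810 to 0.880) in IAHC cells. The E10 IAHC cells were sorted as c-kit+CD31+, and against them the E11 c-kit+CD31+ sample gave 0.781 (0.748 to 0.816) and the E11 c-kit+ sample 0.992 (0.945 to 1.04). Other lists moved between the stages too: cell cycle genes were past 1.5-fold lower at E11 in 21 of 21 in HE and 8 of 21 in EHT, haematopoietic markers lower in 7 of 9 in HE, endothelial markers higher in 7 of 10 in EHT and 8 of 10 in YS HSPCs, and, in IAHC cells, erythroid markers lower in 3 of 3 and mesenchymal markers higher in 2 of 2; their part was not tested. Past 1.5-fold lower at E11 were 11 of 30 members in HE (875 of all 4562 genes, 19%), 12 in EHT (14.2%), 2 in IAHC cells (8.04%, Nop58 and Gnl3) and 9 in YS HSPCs (13.5%), and none was past it higher in these 4 (14.2%, 14.5%, 14% and 22.3% of all genes). The HE count rests on both E10 HE sets: 2 members were higher and 11 lower without the first, and 7 higher and 12 lower without the second. Non-HE had 6 higher and 6 lower, with 17.9% and 16.7% over all genes, and 14 to 17 in all when 1 set was left out. The stages also differ in the depth each table was thinned to and in the sorted sets that gave the cells, and stage and set cannot be told apart. The E10 non-HE cells, the population that was level, stand under headers that read early E11.

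The E11 IAHC cells came as 2 samples, and the members differed between them. In the c-kit+CD31+ sample (201 cells) the sum was 98.3 (96.1 to 101), and in the c-kit+ sample (89 cells) 125 (121 to 129); the sets ranged from 92.6 to 102 in 1 and from 109 to 138 in the other, with no overlap. Npm1 stood at 25.8 and 41.9. Of 30 members, Dkc1, Npm1, Pes1 and Ebna1bp2 had all c-kit+ sets above all c-kit+CD31+ sets and none the reverse (2.1% and 3.49% of all genes). Endothelial markers summed to 23.5 and 14.8, mesenchymal markers to 3.09 and 5.22 and cell cycle genes to 57.7 and 58.2, and their part in the difference was not tested.

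Other ribosome biogenesis genes, from lists of 81 tested genes, were more often past 1.5-fold higher than lower in EHT. At E10, 43 of the 81 were past 1.5-fold higher in EHT and none lower, with a median log2 ratio of 0.64, and at E11 38 were higher and 3 lower (0.52), where 19% and 24.7% of all genes were higher. Large subunit factors gave 18 of 27 and 9 of 27 higher, small subunit factors 15 and 16 of 33, snoRNP assembly factors 4 and 5 of 5, RNA exosome subunits 3 and 6 of 8, and further RNA polymerase I genes 3 and 2 of 8. Ftsj3 (log2 ratio 1.90 and 2.41), a large subunit factor, and Nat10 (1.56 and 1.67), an rRNA acetyltransferase, were among those higher at both stages.

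Mycn, whose product belongs to the Myc family of transcription factors known to drive ribosome biogenesis genes, was highest in EHT, with 5.06 in the E10 cells (interval 4.5 to 5.68) and 5.90 in the E11 cells (interval 4.85 to 7.11), where it stood at 0.155 to 1.05 in the other E10 populations and at 0.155 to 2.31 in the other E11 populations. In YS HSPCs, where the members were highest, Mycn stood at 0.213 and 0.985. Myc itself was at few transcripts, with its highest level in YS HSPCs at both stages, 0.733 (0.498 to 1.04) and 0.811 (0.443 to 1.36), which overlaps the 0.646 (0.455 to 0.890) and 0.536 (0.257 to 0.986) of EHT. It was nearly as high in E10 non-HE, at 0.698 (0.319 to 1.32), and in E11 type II pre-HSCs, at 0.771 (0.441 to 1.25). Among the 4532 other genes past the filter, the 10 with the highest correlation with the summed members over the 12 populations were Lyar (0.991), Set, Hk2, Ddx18, Hspd1, Dctpp1, Eif5a, Dut, Mif and Snx5 (0.978). The first of these, Lyar, a nucleolar protein, stood at 0.646, 1.5, 1.74 and 3.66 in HE, EHT, IAHC cells and YS HSPCs at E10. At E11, where ribosomal protein genes were also in the table, the 102 genes named Rpl or Rps took 13.9% of all transcripts in non-HE, 14% in HE, 18.9% in EHT, 24.2% and 24.5% in type I and type II pre-HSCs, 23.4% in IAHC cells and 25% in YS HSPCs, the order of the members.

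Promoter windows of 300 bases, from 250 before to 50 after the start site, were taken from RefSeq on GRCm38.p6 for 28 of the 33 genes. The E-box CACGTG, the letters of a Myc family site, was read on both strands in 5 of the 28 (17.9%; 8.09% of all genes) and in 4 of the 26 past the level filter (15.4%; 13.0% of the other genes past it), in Mybbp1a, Nop2, Pes1, Utp20 and Wdr43. The ETS letters CCGGAAG were in 8 of 28 (28.6%; 9.93% of all genes) and 8 of 26 (30.8%; 23.9%), and the NRF1 motif in none (1.07% of all genes). Shown are Nop2, the member with both letters, Nhp2, with an ETS match and steady steps through the populations, and Nip7, lower in IAHC cells than in EHT at both stages; capitals mark the matches on either strand. The windows are chr6:125131633-125131932, chr11:51619523-51619822 and chr8:107056627-107056926, all on the + strand.
Nop2: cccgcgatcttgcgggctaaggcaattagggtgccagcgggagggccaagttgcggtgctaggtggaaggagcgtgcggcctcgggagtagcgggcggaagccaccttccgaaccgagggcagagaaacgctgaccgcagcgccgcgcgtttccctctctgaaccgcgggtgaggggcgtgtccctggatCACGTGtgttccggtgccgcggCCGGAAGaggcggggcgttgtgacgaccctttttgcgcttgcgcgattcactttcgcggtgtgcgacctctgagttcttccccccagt
Nhp2: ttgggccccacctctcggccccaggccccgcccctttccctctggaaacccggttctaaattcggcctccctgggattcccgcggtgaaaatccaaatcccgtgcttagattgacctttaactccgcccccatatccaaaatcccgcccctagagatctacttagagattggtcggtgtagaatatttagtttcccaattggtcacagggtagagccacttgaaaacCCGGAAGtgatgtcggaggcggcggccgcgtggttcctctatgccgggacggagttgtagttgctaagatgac
Nip7: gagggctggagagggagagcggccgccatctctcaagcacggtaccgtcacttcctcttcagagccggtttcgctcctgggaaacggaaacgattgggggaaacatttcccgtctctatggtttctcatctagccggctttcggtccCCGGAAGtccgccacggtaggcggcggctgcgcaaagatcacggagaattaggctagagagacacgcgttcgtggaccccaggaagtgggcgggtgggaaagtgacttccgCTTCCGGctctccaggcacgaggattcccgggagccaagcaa
The Nop2 window carries the E-box 60 bases before the start site and an ETS match 38 bases before it, the Nhp2 window an ETS match 23 bases before, and the Nip7 window ETS matches 103 bases before and 9 bases after the start. Whether any of these matches bears on the levels was not tested.

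In wIAHCs, 2 of the 3 members counted often enough to be tested, Npm1 and Ncl, were lower at E11 than at E10 on the ventral side, and the third, Nip7, did not pass. Of 109 wIAHCs, 57 with at least 5000 transcripts were used, and a wIAHC is a small group of cells, so fewer cells of a type and less RNA per cell cannot be told apart. Embryos cannot be recognised in the labels, so p-values measure the spread between wIAHCs. The summed level of the 33 genes ranged from 117 through a median of 153 to 165 over 7 E10 dorsal wIAHCs and from 98.5 through 140 to 169 over 21 E10 ventral ones. At E11 it ranged from 41.8 through 91.5 to 116 over 12 dorsal wIAHCs and from 37.4 through 92.1 to 125.7 over 17 ventral ones. The lowest wIAHC of each E11 group held many erythroid transcripts (27.7% and 23.8%), and without the 4 E11 wIAHCs of over 5% the lowest values were 68.5 (10 dorsal) and 74.6 (15 ventral), with medians of 91.5 and 92.2. All 7 E10 dorsal wIAHCs lay above the highest E11 dorsal one, and 17 of 21 E10 ventral wIAHCs above the highest E11 ventral one.

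**Figure D5:**
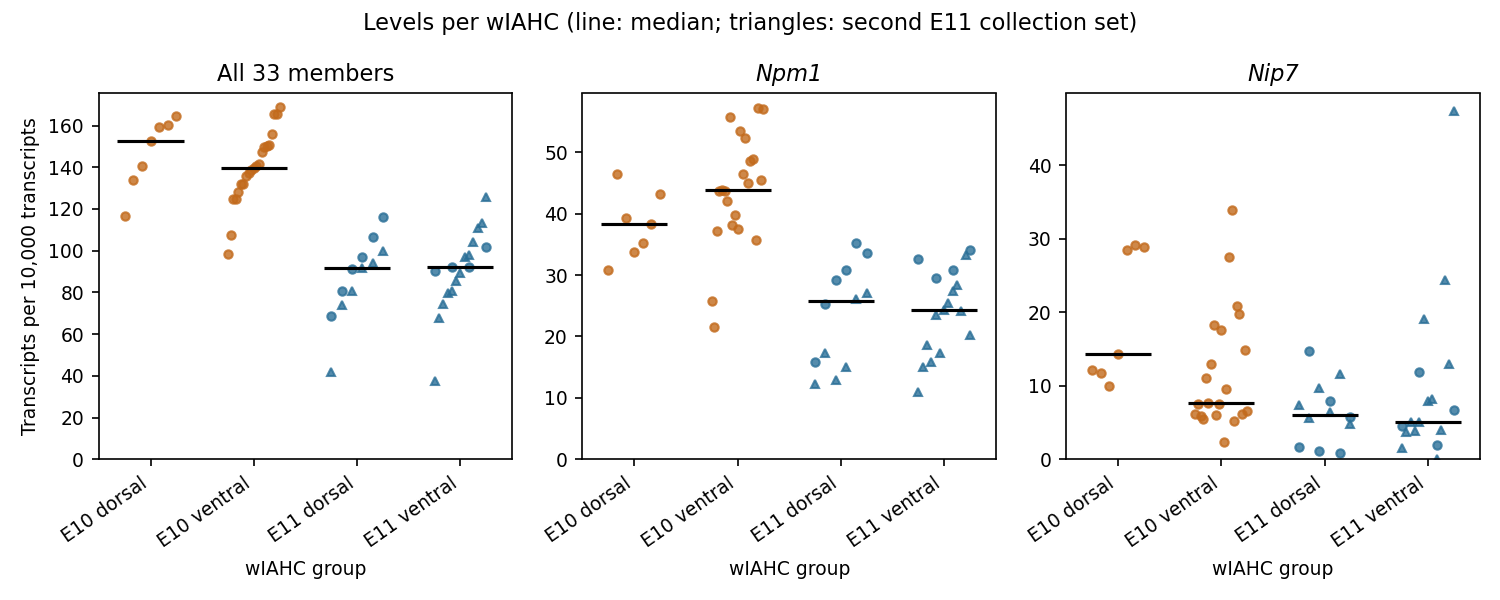
Summed level of the 33 genes, and levels of Npm1 and Nip7, in transcripts per 10000 (y axis), for each wIAHC by stage and side (x axis); lines are medians, and triangles the second E11 set. E10 wIAHCs sit between 98.5 and 169 in the summed level and E11 wIAHCs between 37.4 and 125.7.

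Of the 33 members, Npm1, Ncl and Nip7 were counted often enough to enter the test of 260 genes. Npm1 ranged from 30.8 through 38.4 to 46.5 in E10 dorsal, from 21.5 through 43.8 to 57.2 in E10 ventral, from 12.3 through 25.7 to 35.2 in E11 dorsal and from 11 through 24.3 to 34.1 in E11 ventral wIAHCs. Ncl ranged from 5.83 through 16.3 to 33.8, from 9.25 through 17.3 to 35.4, from 4.90 through 12 to 19 and from 3.48 through 7.86 to 22 in the same groups. The E10 and E11 ranges overlap for both genes. On the ventral side Npm1 fell by 0.73 (SE 0.13) and Ncl by 0.81 (SE 0.19) on the log2 scale from E10 to E11 in edgeR's quasi-likelihood test, with adjusted p = 9.08e-06 and 0.000669, beside 13.1% of the 260 genes lower and 18.1% higher. The 45S pre-rRNA row (Rn45s) moved the other way in the same wIAHCs, from a ventral median of 0.0449% of transcripts at E10 to 0.128% in the first and 0.436% in the second E11 set, and its part was not tested. The headers number 2 sets of E11 wIAHCs, and the call differed between them. Against E10, the 13 ventral wIAHCs of the second set alone gave -0.85 for Npm1 and -1.05 for Ncl (edgeR adjusted p = 1.53e-06 and 9.83e-05), and the 4 of the first set alone -0.43 and -0.33 (0.1 and 0.522), both after seeing that the sets differed. With a term for the difference between the E11 sets, so that the stage change is the plain average of the changes to each set, both calls held, at -0.62 (SE 0.12, edgeR adjusted p = 7.09e-05) for Npm1 and -0.71 (SE 0.19, adjusted p = 0.00297) for Ncl. Without the 4 wIAHCs of over 5% erythroid transcripts they were -0.68 and -0.77 (edgeR adjusted p = 8.68e-06 and 0.00141). Erythroid markers also moved with set, from at most 0.0541% of transcripts in E10 wIAHCs and 0.174% in the first E11 set to at least 0.192% (median 0.363%) in the second, and their part in the fall was not tested beyond leaving out these 4. Over 9 alternatives in edgeR and DESeq2, 8 called each gene, with adjusted p from 1.18e-07 to 0.1 for Npm1 and from 9.83e-05 to 0.522 for Ncl. Npm1 had a mean of 31.8 ± 2.00 (SD, n = 4) in the first set and 21.9 ± 6.23 (SD, n = 13) in the second, where E10 had 43.8 ± 9.36 (SD, n = 21). The summed level of the members was below E10 in both sets, at 94.2 ± 5.15 (SD, n = 4) and 89.6 ± 22.8 (SD, n = 13) against 140 ± 17.7 (SD, n = 21). E10 wIAHCs have 1 set, so stage and set cannot be told apart in full.

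On the dorsal side no member passed in edgeR with both E11 sets, nor in DESeq2, where 1.92% of genes were lower and 7.31% higher in edgeR, though 2 members, Npm1 and Nip7, had an unadjusted p under 0.05 in edgeR. The log2 change there was -0.39 for Npm1 (SE 0.19, edgeR adjusted p = 0.182), -0.38 for Ncl (SE 0.29, adjusted p = 0.447) and -1.32 for Nip7 (SE 0.48, adjusted p = 0.0681). These rest on the set and the settings: dorsal Npm1 was -0.79 (edgeR adjusted p = 0.0168) against the second E11 set alone and -0.12 (0.797) against the first, and dorsal Nip7 passed without TMM scaling and at 3000 transcripts (edgeR adjusted p = 0.0316 and 0.0398). In Nip7 the ventral change was -0.02 (SE 0.32, edgeR adjusted p = 0.985). Between ventral and dorsal wIAHCs of one stage none of the 260 genes passed in edgeR at E10 or E11, nor did any for a difference of the stage change between sides (0% of genes in each); of the 3 members tested, none had an unadjusted p under 0.05 between the sides at either stage, and Nip7 alone had one for the interaction, with a log2 value of 1.3 and an edgeR adjusted p of 0.408.

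With no filter on low counts, all 33 members among 13627 genes were tested by edgeR, and further members passed. On the ventral side 6 fell from E10 to E11: Npm1, Ncl, Ddx21 (log2 change -1.32), Nhp2 (-1.09), Nop16 (-1.3) and Nop2 (-1.4), beside 0.925% of all genes. On the dorsal side 4 fell: Nip7 (-1.83), Mrto4 (-2.62), Bop1 (-2.66) and Nop2 (-2.64), beside 0.602% of all genes. These shares are over all 13627 genes with any count, most of which the count filter leaves out. They are therefore not a like measure for the members, and no excess is read from them. With the filter, 13.1% of 260 genes were lower on the ventral side and 1.92% on the dorsal side. Changes were shifted in this fit. The dorsal change was -0.91 for Npm1 and -0.92 for Ncl, against -0.39 and -0.38 with the filter. The ventral change was -0.91 and -0.97, against -0.73 and -0.81. Npm1 between ventral and dorsal wIAHCs at E11 was 0.32, against -0.08. The cause of this shift was not tested. No member rose on either side, and the share of all genes that rose in this fit is not given here. Between the sides no member passed in that fit, nor for the interaction, though 2 members at E10 (Dkc1 and Nip7), 4 at E11 (Bop1, Nip7, Mrto4 and Nop10) and 4 for the interaction (Nip7, Bop1, Dkc1 and Ddx21) had an unadjusted p under 0.05 in edgeR. For neither fit is the share of all genes under that unadjusted limit given here, so these counts show no excess among the members. In wIAHCs Nip7 ranged from 9.94 through 14.3 to 29.2 (E10 dorsal), 2.34 through 7.67 to 34 (E10 ventral), 0.884 through 6.09 to 14.7 (E11 dorsal) and 0 through 5.08 to 47.4 (E11 ventral), with medians above the 2.28 and 1.77 of the IAHC single cells of the same strain.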

How the data were processed

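The members and gene lists were chosen with earlier results of these data known. Cells and wIAHCs were measured by CEL-Seq, with 1 barcode a cell. As deposited, values are estimated counts made by the authors from molecular identifiers, and the submitters' processing notes name BWA 0.6.2-r126 and mm10. The lowest deposited single-cell value is 0.1, which was subtracted here, and each cell then held 3000 (E10) or 5000 (E11) transcripts; the study's methods give thinning to 5000 and no other depth. wIAHC counts were not thinned. Transcripts were summed per population, and the level, the filter (mean of at least 0.5 per 10000 over the 12 populations), the ratio (0.5 added to each sum) and the 1.5-fold limit were computed in Python 3.11.15. The total over shared genes was chosen after the E10 table was seen to lack Rpl and Rps genes. Populations have 1 sample, so they were not tested; intervals are exact Poisson or binomial at 95% and cover counting error only.

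wIAHCs with at least 5000 transcripts were fitted in edgeR 4.0.16 (quasi-likelihood, TMM, filterByExpr, Benjamini-Hochberg adjusted p 0.05) on rounded counts without 90 spike-in rows, in 4 groups of stage and side; SE is the log2 change over the square root of F. DESeq2 1.42.0 was an alternative. The edgeR script was tested on simulated data. Genes given full values had a mean level of at least 2, or were past 1.5-fold at both stages from HE to EHT; the 10 non-members named had the highest correlations. Coordinates and promoters are RefSeq GRCm38.p6. Strand use in counting is not given in the sources used here, so reads of Dkc1, Nop56, Nhp2, Gnl3, Mybbp1a, Rrp9, Heatr1, Bysl, Wdr12 and Bop1, which overlap a gene on the other strand, may be shared.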

Additional observations from a re-analysis of the deposited data

Results flagged for a closer look

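Ebna1bp2 in E10 dorsal wIAHCs had a lowest library at 0 transcripts per 10000, where the median of the 7 wIAHCs was 2.55 and the next lowest 2.22. The gap from the lowest to the next was 0.574 of the group's range, above Dixon's 95% limit for a group of that size. In all, 34 levels were looked at in this way, and chance alone passes the limit in about 1 group of 20.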

How the results depend on the processing

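Several alternatives were run on each count and level; 211 of the values stayed within their limits, and 55 moved. Without Npm1 the summed levels became 30.5, 39.2, 82.0, 92.9 and 149 at E10 (non-HE, HE, EHT, IAHC, YS HSPC) and 27.8, 28.6, 55.5, 78.7, 85.2, 75.6 and 104 at E11 (non-HE, HE, EHT, type I, type II, IAHC, YS HSPC), and over all transcripts, a total chosen after seeing the data, 35, 35.5, 65.8, 87.1, 90.0, 81.3 and 107 at E11. With a limit of 2-fold, the counts of members became 7 and 5 (non-HE to HE, E10 and E11), 15 and 11 (HE to EHT), 3 and 11 (EHT to IAHC), 0 (type I to type II), 7 and 2 (IAHC to YS HSPC), and from E10 to E11 4, 3, 1, 1 and 4 (non-HE, HE, EHT, IAHC, YS HSPC). A filter of 1 left 1 member from type I to type II, and a pseudocount of 0.1 transcripts per cell gave 8 and 5 from non-HE to HE and 7 from E10 to E11 in non-HE. Counts at these settings, and with a sorted set left out, join higher and lower members unless both are given. The share of all genes at these settings is not given here, so these counts show no excess among the members. Leaving out 1 sorted set at a time moved the levels within 40.2 to 42.4 (E10 non-HE), 62.8 to 64.5 (E10 HE), 122 to 126.1 (E10 EHT), 185.9 (E10 YS HSPC), 38 to 45.1 (E11 non-HE), 110.0 to 118 (type I), 111 to 125 (type II) and 103 to 109 (E11 IAHC), and the counts within 15 to 19 (non-HE to HE, E10), 2 to 8 (type I to type II), 13 to 19 (E10 to E11, HE) and 2 to 4 (E10 to E11, IAHC). From E10 to E11 in IAHC cells the count was 5 and 4 with the c-kit+CD31+ or the c-kit+ sample alone, chosen after seeing that they differ. Without the second E10 HE set, 7 members were higher and 12 lower at E11 in HE. In wIAHCs, edgeR without a filter called 6 (ventral) and 4 (dorsal) members; without TMM or at 3000 transcripts it called 1 dorsal member, Nip7 (log2 -1.49 and -1.44, edgeR adjusted p = 0.0316 and 0.0398), with the second E11 set alone, also 1 dorsal member, Npm1 (-0.79, edgeR adjusted p = 0.0168), and with the first alone 0 ventral members. The ventral Nip7 change turned to 0.20 with the second set alone, 0.16 at 10000 transcripts and 0.062 without wIAHCs of over 5% erythroid transcripts. Without TMM the median of all genes shifted to -0.13 (ventral) and -0.16 (dorsal), and the calls became 30 higher and 56 lower, and 16 and 24, against 47 and 34, and 19 and 5. No wIAHC was left out singly, since the smallest group holds 7. No paired analysis was possible because the labels give every sample the number 1; the pre-HSC sets share numbers in the headers only, and their values within each number are given with no test. The cause of these shifts was not tested; members at a few transcripts limit the counts.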

Other observations

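In the wIAHC table a row for the 45S pre-rRNA (Rn45s) is listed, and it was not used in single cells. It was named after its values were seen. Its share of transcripts had medians of 0.156% in E10 dorsal, 0.0449% in E10 ventral, 0.780% in E11 dorsal and 0.388% in E11 ventral wIAHCs. In edgeR's quasi-likelihood test it rose from E10 to E11 by 3.42 on the log2 scale (SE 0.43, adjusted p = 4.12e-09) on the ventral side and by 3.04 (SE 0.63, adjusted p = 0.00147) on the dorsal side, opposite in direction to Npm1 and Ncl.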
